A study of Mus musculus with 12 samples.

Results

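Hyaluronan is a long, unbranched sugar polymer of the dermal matrix, and the genes that make it, break it down and bind it were followed here in the back skin of wild-type (WT) and Thy-1 knockout (KO) mice given PBS or bleomycin (BLM). The genes were chosen by symbol and role, with earlier results of these data known, although no value enters the rule. It held 9 genes of the 55453 in the count table, namely the synthases Has1, Has2 and Has3, the breakdown genes Hyal1, Hyal2 and Cemip, the receptor Cd44, and the binding proteins Vcan (versican) and Tnfaip6 (TSG-6). All 9 were found and all 9 passed the filter on low counts, as did 18311 genes in all.

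The question behind the design was how loss of Thy-1, a glycoprotein anchored to the surface of fibroblasts and other cells, changes the skin's response to bleomycin, a drug that induces dermal fibrosis on repeated injection. RNA was sequenced from whole skin of 12 mice on the C57/BL6 strain, 3 in each of 4 groups, which pair either genotype with either treatment (WT PBS, KO PBS, WT BLM, KO BLM). The labels name the KO genotype Thy1-knockout, and the design gives 21 days of treatment with bleomycin or PBS. By the study's methods, the KO mice were females 8 to 12 weeks old and controls were littermates. Bleomycin was given under the dorsal skin at 10 mg/kg per day in PBS, by daily injections, and the control mice received PBS alone. The methods describe a shorter course of injections than the 21 days of the design. The study places the harvest of the sequenced skin at day 21, so the skin may have been taken after the injections had ended. The knockout is not described as restricted to a cell type, so effects of Thy-1 loss in different cell types cannot be told apart. Each library carried its own mouse number, and the numbers are used as names below.

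The 12 libraries held 26473700 to 38890450 counted reads (median 31494965). Thy1 itself was counted at 104 to 150 CPM (reads scaled to a common library size) in WT PBS and 231 to 416 in WT BLM, and it was lower in every KO mouse than in any WT mouse of the same treatment, at 45.6 to 96.9 CPM in KO PBS and 84.7 to 128 in KO BLM. Reads thus remained on the gene in KO mice, and which part of Thy1 the deletion removes was not given in the sources used here. The libraries also differed in hair follicle content. The summed level of 14 hair shaft and root sheath genes was 46290 to 64763 CPM in WT PBS and 33.0 to 809 CPM in WT BLM, with no overlap. Among KO mice it was 74226 CPM in KO PBS mouse 136 against 30.3 and 189 CPM in mice 137 and 139, and 35394 CPM in KO BLM mouse 141 against 3555 and 5962 CPM in mice 143 and 144. In WT mice the bleomycin effect and the hair content therefore cannot be told apart. Among KO mice, mouse 136 was high with PBS and mouse 141 with BLM. Every KO BLM mouse also lay above every WT BLM mouse in the summed hair level. All 14 hair genes were without overlap between these groups, with a median log2 difference of 5.68. Genotype under bleomycin and hair content thus cannot be told apart, which limits every difference between KO BLM and WT BLM below. In bulk skin, fewer cells of a type and less RNA per cell cannot be told apart either, which holds for every value below.

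Hyaluronan is extruded at the plasma membrane by the synthases, which join 2 sugars supplied as nucleotide precursors. It is cut outside and inside the cell by hyaluronidases and by the hyaluronan-binding protein CEMIP. Cells hold it through receptors such as CD44, and versican and TSG-6 bind and organise it into a hydrated matrix, which is known to expand in injured and inflamed skin. Epidermis and dermis both make hyaluronan, and the dermal papilla of the growing hair follicle is rich in versican.

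In WT mice, bleomycin was followed by higher Tnfaip6 and lower Hyal1 and Hyal2, while the other members did not pass the test. These 3 of 9 genes were called at an adjusted p under 0.05 (edgeR's quasi-likelihood test, Benjamini-Hochberg over all genes tested), 1 higher and 2 lower. The background in this comparison was high, since 34.0% of all genes tested were called, 19.8% higher and 14.1% lower, so a count of 3 of 9 is near the background share. With the hair list as a covariate 0 of 9 members and 24 of all genes were called, and the log2 fold changes of Tnfaip6, Hyal1 and Hyal2 were then 1.39, -0.24 and -0.13 (adjusted p of 0.507, 0.795 and 0.856). For 8 of the 9 genes, all but Vcan, the 3 WT BLM mice did not overlap the 3 WT PBS mice, beside 57.0% of all genes. In KO mice 0 of 9 genes were called between BLM and PBS (background 0.306%), and 4 did not overlap, Has1, Hyal1, Cd44 and Vcan (background 19.3%). No member was called between KO PBS and WT PBS (background 0.0655%) or between KO BLM and WT BLM (background 0.0928%), and 3 genes did not overlap in each (backgrounds 18.9% and 27.5%). The difference of the bleomycin responses between genotypes, tested as an interaction, was called for 0 members and 0% of all genes. At an unadjusted p under 0.05 edgeR held 4 members in the KO bleomycin comparison (Has1, Hyal1, Cd44 and Vcan, background 20.0%), 2 in KO PBS against WT PBS (Cd44 and Vcan, background 20.4%), 1 in KO BLM against WT BLM (Hyal2, background 16.6%) and 1 in the interaction (Hyal2, background 31.1%). DESeq2, after adjustment, called 1, 0, 0 and 1 members in these 4, where its backgrounds were 5.95%, 3.69%, 2.99% and 17.8%. The median log2 fold change of the 9 genes was 0.38 in WT, where the median of all genes was 0.02, and 0.46 in KO, where it was -0.01.

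**Figure D1:**
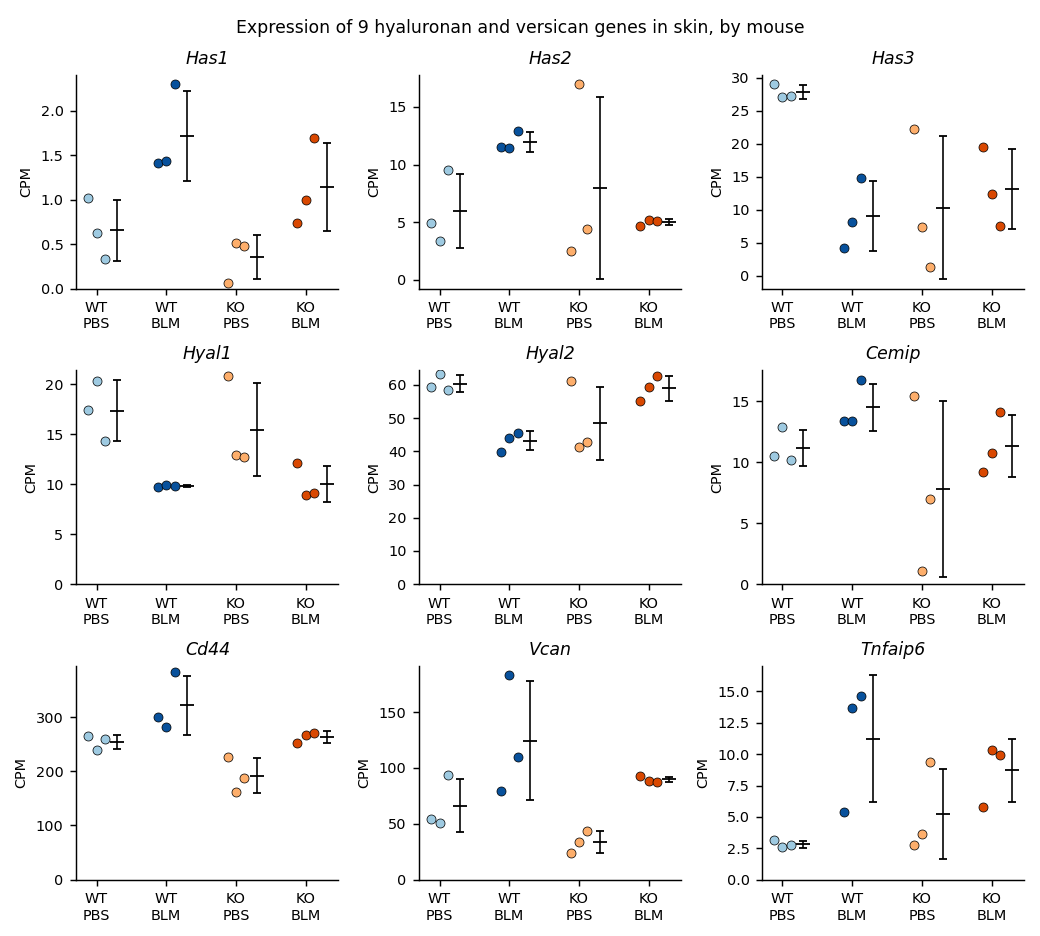
Level of each of the 9 genes in CPM (vertical axis, from 0) in each of the 12 mice, grouped by genotype and treatment, with 1 point a mouse and the mean ± SD (n = 3) beside it. Tnfaip6 sits at 2.57 to 3.14 CPM in WT PBS and at 5.40 to 14.6 CPM in WT BLM, and Hyal1 and Hyal2 lie lower in all 3 WT BLM mice than in any WT PBS mouse.

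Of the synthases, Has2 is the main enzyme of dermal fibroblasts and Has3 is prominent in the epidermis, whereas Has1 is usually the least expressed. Has1 was counted at 1.01, 0.63 and 0.33 CPM in WT PBS mice 159, 160 and 161, and at 1.41, 1.43 and 2.30 CPM in WT BLM mice 145, 146 and 147. In KO mice it was 0.07, 0.51 and 0.48 CPM with PBS (mice 136, 137 and 139) and 0.73, 0.99 and 1.7 CPM with BLM (mice 141, 143 and 144). Every BLM mouse lay above every PBS mouse of its own genotype, at 2 to 70 reads a library. The log2 fold change was 1.39 ± 0.60 (SE) in WT (adjusted p = 0.0900) and 1.66 ± 0.62 in KO (adjusted p = 0.184), and the difference between the responses was 0.27, with a 95% interval from -1.59 to 2.13.

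Has2 showed a different layout across the groups. It was 4.90, 3.36 and 9.55 CPM in WT PBS and 11.5, 11.4 and 12.9 CPM in WT BLM, so that the WT groups did not overlap. The KO PBS mice spread widely, at 2.46, 17.0 and 4.41 CPM, with mouse 137 above every other library of the study, and the KO BLM mice were close together at 4.68, 5.21 and 5.09 CPM. In WT the log2 fold change was 1.01 ± 0.60 (adjusted p = 0.208) and in KO it was -0.67 ± 0.60 (adjusted p = 0.545). All 3 KO BLM mice lay under all 3 WT BLM mice, with a log2 difference of -1.26 and an adjusted p of 0.320. These groups also stood apart in hair level, as given above. The interaction was -1.68 (95% interval -3.56 to 0.20, adjusted p = 0.197). Without KO PBS mouse 137 the KO change turned to 0.54, and without KO PBS mouse 136 the interaction was -2.10 with an adjusted p of 0.0356. Leaving out mouse 136 left only mice with low hair levels in KO PBS, and 7470 of all genes then passed in the interaction. This limit holds for every fit without mouse 136 below.

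Has3 was the most abundant synthase in WT PBS skin, at 29.0, 27.0 and 27.3 CPM. It was 4.23, 8.22 and 14.8 CPM in WT BLM. The KO mice were at 22.3, 7.37 and 1.31 CPM with PBS and at 19.5, 12.3 and 7.49 CPM with BLM. No other mouse reached the WT PBS values, and within each KO group the hair-rich mouse, 136 or 141, was the highest. The WT log2 fold change was -1.61 ± 0.78 (adjusted p = 0.128), that between KO PBS and WT PBS was -1.43 ± 0.78 (adjusted p = 0.296), and in KO mice BLM differed from PBS by 0.35 ± 0.77 (adjusted p = 0.825). Leaving out mouse 136 alone moved the KO PBS against WT PBS difference to -2.68 with an adjusted p of 0.0188, and the interaction from 1.96 (adjusted p = 0.233) to 3.21 (adjusted p = 0.0210). Over all genes that fit called 6870 and 7470 in these comparisons, against 12 and 0 with all mice. In the WT comparison, Has3 passed without KO PBS mouse 136 (adjusted p = 0.0496) or mouse 139 (adjusted p = 0.0427) and Has1 without mouse 136 (adjusted p = 0.0267). Both also passed in a fit of the WT mice alone, Has3 at -1.61 (adjusted p = 0.0163) and Has1 at 1.41 (adjusted p = 0.0379). The fit of the WT mice alone called 7803 of all genes.

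Per kilobase of exon the balance among the synthases could be set side by side. Of the summed level of Has1, Has2 and Has3 in CPM per kilobase, Has3 made up 64.8% to 82.0% in the WT PBS mice and 18.0% to 39.4% in the WT BLM mice. Has2 made up 15.3% to 34.1% in WT PBS and 51.9% to 73.6% in WT BLM. Thus Has3 was the largest share in each WT PBS mouse and Has2 in each WT BLM mouse. In KO PBS, mouse 136 had 85.5% Has3, whereas mice 137 and 139 had 75.9% and 77.0% Has2. KO BLM mice lay between, with 42.7% to 70.7% Has3 and 25.5% to 43.7% Has2. Has1 did not exceed 13.6% in any mouse. These shares are descriptions and carry no test, and the hair list moved with them, at 33.0 to 809 CPM in the WT BLM mice and 30.3 and 189 CPM in mice 137 and 139; its part in the result was not tested. The counts of Has2 and Has3 also carry a limit, because Has2 shares 182 exon bases (4.30%) with Has2os and Has3 shares 352 (5.52%) with Chtf8, both on the opposite strand, and the use of strand in the counting was not given in the sources used here. Has2os was at 0.28 to 2.09 CPM in the 12 mice.

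Among the breakdown genes, Hyal1 codes for the lysosomal hyaluronidase of most tissues and Hyal2 for a membrane-anchored enzyme that cuts long chains into intermediate ones. The genes are neighbours on chromosome 9 with Hyal2 at chr9:107567945-107572779 and Hyal1 at chr9:107576927-107581710, both on the plus strand (GRCm38, GENCODE M21), 4147 bases apart. Thy1 lies on the same chromosome (chr9:44043384-44048579), 63.5 Mb away. The stretches before their RefSeq starts (RefSeq, GRCm38.p6) are shown because both genes fell in WT skin, cut to the part outside any annotated exon of the gene, which for Hyal2 leaves 70 bases (chr9:107568913-107568982) and for Hyal1 leaves 227 (chr9:107576700-107576926). The Hyal2 stretch lies inside the annotated gene, between exons, so it is not upstream of every Hyal2 transcript. Capitals mark matches to the motifs searched.
Hyal2: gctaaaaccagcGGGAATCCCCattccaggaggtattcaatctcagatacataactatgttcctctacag
Hyal1: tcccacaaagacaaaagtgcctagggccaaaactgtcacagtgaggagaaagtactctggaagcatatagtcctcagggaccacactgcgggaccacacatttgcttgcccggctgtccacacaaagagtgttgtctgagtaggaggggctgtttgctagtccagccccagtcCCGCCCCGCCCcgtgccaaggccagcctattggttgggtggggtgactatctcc

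The Hyal1 stretch held the GC box (GGGCGG, read on either strand) in a pair of matches at -77 to -72 and -72 to -67, which share 1 base, counted from the start with -1 as the base before it. Hyal2 had a GC box at -47 to -42, in a part not printed, and a match to the NF-κB motif at -238 to -229, both inside the annotated gene. Of the 32851 promoter windows of the same length, 32.7% held a GC box and 7.25% an NF-κB match. A match is a description of letters, not a site in use.

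Hyal1 was counted at 17.4, 20.4 and 14.3 CPM in WT PBS and at 9.75, 9.94 and 9.88 CPM in WT BLM. The WT BLM mice were nearly equal and all below the WT PBS mice, a fall to 0.57 of the PBS level (log2 fold change -0.82 ± 0.22, adjusted p = 0.0217). In KO mice the values were 20.8, 12.9 and 12.7 CPM with PBS and 12.2, 8.90 and 9.15 CPM with BLM, again without overlap, with a log2 fold change of -0.62 ± 0.22 that did not pass (adjusted p = 0.175). The difference between the responses was 0.20, with a 95% interval from -0.49 to 0.89. Leaving out WT BLM mouse 145, 146 or 147 or WT PBS mouse 159 or 160 ended the WT call, at adjusted p values of 0.0516 to 0.0607. These fits called 2615 to 4027 of all genes, against 6222 with all mice. Hyal1 shares 1920 exon bases, 50.8% of its exon length, with Naa80 on the same strand, so reads may have been split or dropped between them and its level is uncertain. Naa80 was at 48.6, 49.4 and 32.4 CPM in WT PBS and 32.3, 30.0 and 38.2 CPM in WT BLM, with overlap.

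Hyal2 was more abundant than Hyal1 per kilobase of exon in each group. It was counted at 59.3, 63.2 and 58.6 CPM in WT PBS and 39.9, 44.1 and 45.6 CPM in WT BLM, a fall to 0.72 of the PBS level (log2 fold change -0.48 ± 0.15, adjusted p = 0.0311). KO PBS mice were at 61.1, 41.4 and 42.9 CPM, and KO BLM mice at 55.1, 59.5 and 62.6 CPM. The KO BLM mice thus lay at the WT PBS level and above all WT BLM mice, and KO PBS mouse 136 lay apart from mice 137 and 139. The KO BLM and WT BLM mice also stood apart in hair level, as given above. In KO the log2 fold change was 0.28 ± 0.15 (adjusted p = 0.297), opposite in sign to that of WT, and the interaction was 0.77 ± 0.21 (95% interval 0.31 to 1.22) with an adjusted p of 0.0727. The WT call was lost when any 1 of the 6 WT mice was left out, at adjusted p values of 0.0547 to 0.0872. The log2 fold change in these fits was -0.52 to -0.43. They called 2615 to 4027 of all genes, against 6222 with all mice. Without KO PBS mouse 136, in turn, Hyal2 passed in KO BLM against KO PBS (log2 fold change 0.48, adjusted p = 0.0189), in KO PBS against WT PBS (-0.52, adjusted p = 0.00427), in KO BLM against WT BLM (0.45, adjusted p = 0.0270) and in the interaction (0.97, adjusted p = 0.000787). That fit called 2632, 6870, 1292 and 7470 of all genes in these comparisons, and its KO PBS group held only mice with low hair levels. DESeq2 with all 12 mice also called the interaction (adjusted p = 0.00971). The WT call was thus lost in every fit without a WT mouse, where calls over all genes also fell. Passing in the other comparisons depended on mouse 136 and, for the interaction, on the method.

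Cemip, a hyaluronan-binding protein needed for breakdown by fibroblasts, was at 10.5, 12.9 and 10.1 CPM in WT PBS and 13.4, 13.3 and 16.7 CPM in WT BLM. With PBS the KO mice were at 15.4, 1.09 and 6.94 CPM, and with BLM at 9.15, 10.7 and 14.1 CPM. The WT groups did not overlap, but the KO PBS mice were spread from 1.09 CPM in mouse 137 to 15.4 CPM in mouse 136. The WT log2 fold change of 0.38 ± 0.63 did not pass (adjusted p = 0.659, and 0.103 in a fit of the WT mice alone), nor did that of 0.54 ± 0.63 in KO (adjusted p = 0.646). The KO value rested on single mice, at 1.5 without mouse 136 (adjusted p = 0.0985) and 0.02 without mouse 137 (adjusted p = 0.978).

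Cd44, the main cell-surface receptor of hyaluronan, had the highest level of the 9 genes per kilobase of exon, at a mean of 37.5 ± 2.0 CPM per kilobase in WT PBS and 47.5 ± 8.0 in WT BLM (SD, n = 3). The KO means were 28.3 ± 4.8 with PBS and 38.9 ± 1.6 with BLM. By mouse it was 264, 239 and 259 CPM in WT PBS and 300, 281 and 384 CPM in WT BLM. In KO mice it was 226, 162 and 187 CPM with PBS and 251, 268 and 271 CPM with BLM. Cd44 was the only one of the 9 whose groups stood apart in all 4 comparisons. Every BLM mouse lay above the PBS mice of its genotype and every KO mouse below the WT mice of its treatment. Taken singly, 57.0%, 19.3%, 18.9% and 27.5% of all genes stood apart in WT, KO, PBS and BLM. The share that stood apart in all 4 was not counted, so how common this layout is stays unknown. The differences were small and none passed, with a log2 fold change of 0.34 ± 0.16 for WT BLM against PBS (adjusted p = 0.116), 0.46 ± 0.16 for KO BLM against PBS (adjusted p = 0.169), -0.41 ± 0.16 for KO PBS against WT PBS (adjusted p = 0.221) and -0.29 ± 0.16 for KO BLM against WT BLM (adjusted p = 0.363). Without KO PBS mouse 136 Cd44 passed in the KO bleomycin comparison (0.59, adjusted p = 0.0346) and in KO PBS against WT PBS (-0.55, adjusted p = 0.0208). That fit called 2632 and 6870 of all genes in these comparisons. The responses of the genotypes differed by 0.12, with a 95% interval from -0.38 to 0.62. The difference between KO BLM and WT BLM shares the limit of hair level given above.

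**Figure D2:**
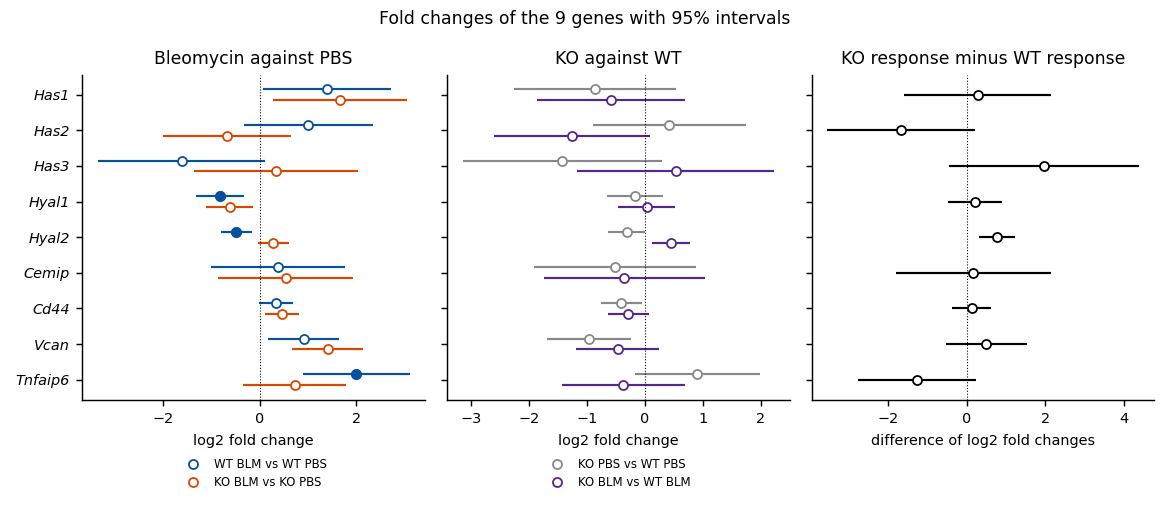
Log2 fold change of each gene with its 95% interval (horizontal axis) for bleomycin against PBS in WT and KO (left), KO against WT under PBS and BLM (middle), and the KO response minus the WT response (right). Filled points were called at an adjusted p under 0.05, which holds for Hyal1, Hyal2 and Tnfaip6 in WT alone, and the interaction interval of Hyal2 lies above 0 without passing the adjustment.

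Vcan codes for versican, the large proteoglycan that binds hyaluronan through its globular end, and it spans chr13:89655312-89742509 on the minus strand. It was counted at 54.0, 51.0 and 93.4 CPM in WT PBS and at 79.8, 184 and 110 CPM in WT BLM. These groups overlapped, because WT PBS mouse 161 lay above WT BLM mouse 145. KO PBS mice were at 24.2, 33.9 and 43.4 CPM, below every other mouse of the study, and the KO BLM mice stood close together at 92.5, 88.7 and 87.7 CPM. The log2 fold change was 0.91 ± 0.33 in WT (adjusted p = 0.0540) and 1.41 ± 0.33 in KO (adjusted p = 0.0968). Between KO PBS and WT PBS it was -0.97 ± 0.33 (adjusted p = 0.206), and the interaction was 0.50 (95% interval -0.53 to 1.52). Vcan was near the threshold in both bleomycin comparisons. In WT it passed without KO PBS mouse 136, WT BLM mouse 145 or WT PBS mouse 161, at adjusted p values of 0.0349, 0.0351 and 0.0418, and by DESeq2 (0.0376). In KO it passed without mouse 136 (adjusted p = 0.0486) and by DESeq2 (0.00502).

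Tnfaip6 codes for TSG-6, a secreted protein induced in inflammation that transfers the heavy chains of inter-alpha-inhibitor onto hyaluronan and so crosslinks it. The gene lies at chr2:52038009-52056686 on the plus strand. Its upstream stretch is shown because Tnfaip6 was the 1 member called higher, and it covers 146 bases (chr2:52037863-52038008), from -250 to -105 from the RefSeq start, where the GENCODE transcript begins further out.
Tnfaip6: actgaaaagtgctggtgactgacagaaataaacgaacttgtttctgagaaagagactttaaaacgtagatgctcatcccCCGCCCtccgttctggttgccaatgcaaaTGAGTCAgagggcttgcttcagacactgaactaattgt

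The capitals mark a GC box at -171 to -166 and an AP-1 motif (TGANTCA) at -142 to -136. An AP-1 match was found in 6.75% of all windows. No window of the other matched members, Has1, Hyal1, Hyal2, Cemip, Cd44 and Vcan, held these AP-1 letters, which says nothing about the factor. A cAMP response element (TGACGTCA, in 1.55% of windows) stood in the Has1 window at -83 to -76, and a TATA box (TATAAA, in 12.4%) in the Cemip window at -29 to -24. Cemip and Vcan each had a pair of GC boxes, Cd44 had no match to any motif searched, and the E-box (CACGTG, in 6.02%) was in none of the 7 windows. RefSeq promoter windows were matched for 7 of the 9 genes, not for Has2 and Has3.

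Tnfaip6 was at 3.14, 2.57 and 2.73 CPM in WT PBS and rose to 5.40, 13.7 and 14.6 CPM in WT BLM, which is 4.0-fold (log2 fold change 2.0 ± 0.50, adjusted p = 0.0162). All WT BLM mice lay above the WT PBS mice, and mouse 145 rose least. KO PBS mice were at 2.76, 3.66 and 9.36 CPM and KO BLM mice at 5.82, 10.3 and 9.97 CPM, which overlapped because of KO PBS mouse 139. The KO log2 fold change was 0.73 ± 0.48 (adjusted p = 0.410), and the interaction was -1.27 (95% interval -2.78 to 0.24, adjusted p = 0.217), so a difference between the genotypes was not shown. The WT call was lost when WT BLM mouse 147 or WT PBS mouse 159, 160 or 161 was left out, at adjusted p values of 0.0512 to 0.0624. These fits called 2615 to 3388 of all genes, against 6222 with all mice.

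Macrophage and fibroblast genes moved in the same mice. A macrophage list was called higher in WT for 7 of 8 genes, with a summed level of 383 to 891 CPM in WT PBS against 2207 to 3161 CPM in WT BLM. In KO mice it summed to 403 to 1967 CPM with PBS and 1486 to 2093 CPM with BLM. A fibroblast list had 4 of 8 genes higher and 1 lower, at 6160 to 8234 CPM in WT PBS against 10836 to 34784 CPM in WT BLM. In KO mice these genes summed to 5690 to 18684 CPM with PBS and 8827 to 23544 CPM with BLM. The T cell list was called for 6 of 7 genes and the skeletal muscle list for 6 of 7, all higher. The muscle genes summed to 4675 to 5227 CPM in WT PBS and 16053 to 33137 CPM in WT BLM. In KO mice they summed to 5885 to 23933 CPM with PBS and 9372 to 17970 CPM with BLM. Between KO PBS and WT PBS 6 of the 7 muscle genes did not overlap, beside 18.9% of all genes. These PBS groups thus also differed in muscle RNA. The epidermis list had 1 of 6 genes called, higher, and summed to 8492 to 10499 CPM in WT PBS and 11612 to 30932 CPM in WT BLM. Of 4 stress keratins 2 were higher and 1 lower. Of the endothelial list 3 of 6 genes were higher, of the neutrophil list 3 of 4 tested, and of the adipocyte list 0 of 6 were called. The hair list, at the levels given above, had 5 of 14 genes called, all lower, and of the 5 dermal papilla genes 4 were called lower and 1 higher. All 14 hair genes were without overlap between WT BLM and WT PBS, beside 57.0% of all genes. Each count of calls here stands beside 34.0% of all genes called in this comparison, 19.8% higher and 14.1% lower. The part of these shifts in the values of Tnfaip6, Hyal1, Hyal2 and the other members was not tested.

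**Figure D3:**
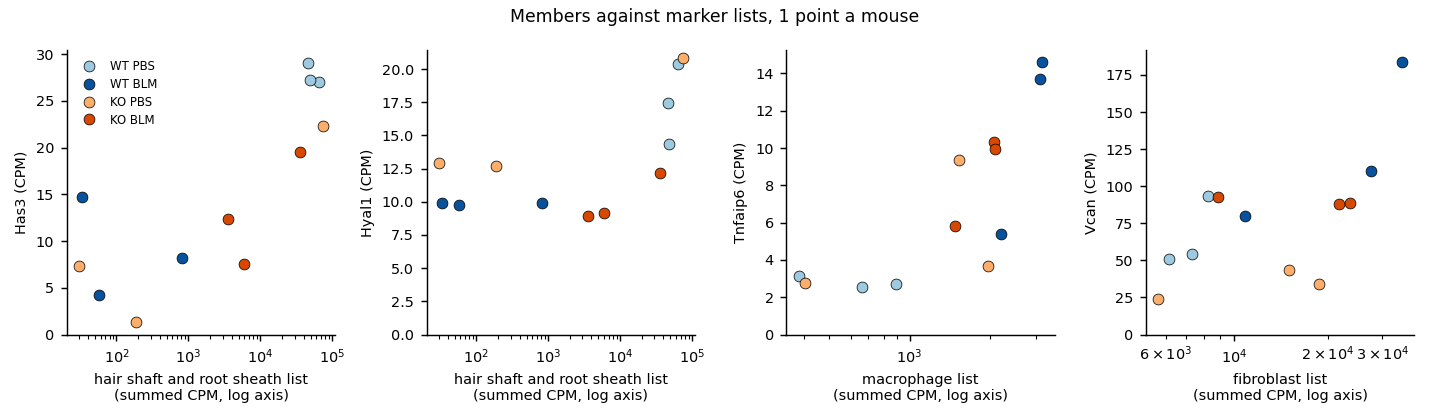
Level in CPM (vertical axis, 1 point a mouse) of Has3 and Hyal1 against the summed CPM of the hair list, of Tnfaip6 against the macrophage list and of Vcan against the fibroblast list (horizontal log axes). Mice 136 and 141, at 74226 and 35394 CPM of hair genes, have Has3 at 22.3 and 19.5 CPM, between the WT PBS mice and all others. The highest pair of Tnfaip6 values, 13.7 and 14.6 CPM, belong to WT BLM mice 146 and 147, which have the highest macrophage sums. These mice also have the highest fibroblast sums, 34784 and 27513 CPM. WT BLM mouse 145 and KO PBS mouse 137, at macrophage sums of 2207 and 1967 CPM, have Tnfaip6 at 5.40 and 3.66 CPM.

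With the 4 groups placed in order of their means, few neighbouring groups had ranges without overlap. The like share over all genes was not counted. Has3 in WT PBS (27.8 ± 1.1 CPM) did not overlap the next group, KO BLM (13.1 ± 6.1 CPM). Hyal1 in KO PBS (15.5 ± 4.6 CPM) did not overlap KO BLM (10.1 ± 1.8 CPM). Cd44 had a pair of separated steps, from WT BLM (322 ± 54 CPM) to KO BLM (263 ± 11 CPM) and from WT PBS (254 ± 13 CPM) to KO PBS (192 ± 33 CPM). Vcan ran from WT BLM (124 ± 53 CPM) through KO BLM (89.6 ± 2.5) and WT PBS (66.1 ± 23.7) to KO PBS (33.8 ± 9.6), and only the last step was free of overlap. Has1, Has2, Hyal2, Cemip and Tnfaip6 had overlapping neighbours throughout that order. The smallest two-sided p that an exact permutation of 3 against 3 mice allows is 0.1, so none was used for a single gene.

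Other genes of the pathway were examined beside the members. Of 47 further genes listed for precursor supply, breakdown, reception, binding and versican cleavage, 46 were found and 40 passed the filter. In WT, 19 of the 40 were called, 15 higher and 4 lower (background 34.0%), with a median log2 fold change of 0.47, and in each of the other comparisons and in the interaction 0 were called by edgeR. Without adjustment 8 of them had a p under 0.05 in KO BLM against PBS, 9 in KO PBS against WT PBS, 8 in KO BLM against WT BLM and 20 in the interaction, beside backgrounds of 20.0%, 20.4%, 16.6% and 31.1%. DESeq2 called 3, 1, 1 and 10 after adjustment, beside 5.95%, 3.69%, 2.99% and 17.8%. In KO mice 9 of the 40 did not overlap between BLM and PBS, beside 19.3% of all genes.

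Of the 7 genes that supply sugar nucleotides, 1 was called in WT, Ugp2, which makes UDP-glucose, rising from 76.4, 74.3 and 91.2 CPM in WT PBS to 258, 189 and 168 CPM in WT BLM (2.54-fold, adjusted p = 0.00797). Ugdh, which turns UDP-glucose into the glucuronic acid donor, differed by a log2 of 0.14 (adjusted p = 0.423). Of 6 other breakdown genes tested, 3 were called, all higher, among them lysosomal enzymes that finish the breakdown of hyaluronan fragments. Gusb, the beta-glucuronidase, was at 28.8, 31.4 and 36.8 CPM in WT PBS and 72.7, 103 and 107 CPM in WT BLM (2.91-fold, adjusted p = 0.00714). Hexa, a lysosomal glycosidase gene, rose 3.16-fold (adjusted p = 0.00996), and Cemip2, a cell-surface relative of Cemip, rose 1.46-fold (adjusted p = 0.0227).

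Of 7 other receptors, 5 were higher and 1 lower in WT. Tlr2, a pattern-recognition receptor reported to sense hyaluronan fragments, was at 4.70, 4.41 and 5.76 CPM in WT PBS and 34.5, 27.0 and 45.2 CPM in WT BLM (7.17-fold, adjusted p = 0.00314). Layn, the receptor layilin, rose 4.07-fold (adjusted p = 0.00477), and Tlr4, Stab1 and Stab2 rose with log2 fold changes of 1.41, 1.35 and 1.62 (adjusted p of 0.0254, 0.0326 and 0.0368). Hmmr, which codes for a hyaluronan-binding protein of the mitotic spindle, fell by 1.30 on the log2 scale (adjusted p = 0.0277). Lyve1, the receptor of lymphatic endothelium, was at 5.61, 9.31 and 41.0 CPM in WT PBS and 5.36, 7.99 and 6.92 CPM in WT BLM, and reached 128 CPM in KO PBS mouse 137, the mouse that also had the highest Has2 and the lowest Cemip. These 3 genes were picked out after the values were seen, and no like count was made for the other mice.

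Of 13 tested binding proteins, 4 were higher and 3 lower in WT. Ptx3, a pentraxin that joins TSG-6 and heavy chains in the hyaluronan matrix, was at 0.51, 0.33 and 0.36 CPM in WT PBS and 2.0, 4.73 and 2.17 CPM in WT BLM (log2 fold change 2.89 ± 0.54, adjusted p = 0.00678). Its values in KO PBS were 0.63, 1.80 and 2.38 CPM. Itih4, Bcan and Habp4 were the other genes called higher, and the proteoglycan genes Acan and Ncan and the link protein gene Hapln3 were called lower, with log2 fold changes of -2.46, -2.30 and -1.58. Bcan, Ncan and Itih4 were counted at 0 to 39 reads a library. Among 7 proteases that can cleave versican, Adamts4 and Adamts8 rose 6.11-fold and 3.94-fold (adjusted p of 0.0108 and 0.00643), while Adamts1, Adamts5, Adamts9, Adamts15 and Adamts20 did not pass. Adamts4 was at 3.96, 4.28 and 4.97 CPM in WT PBS and 15.8, 35.5 and 29.4 CPM in WT BLM, and at 2.16, 2.06 and 9.59 CPM in KO PBS and 14.2, 23.7 and 24.1 CPM in KO BLM. Its KO log2 fold change of 2.16 did not pass (adjusted p = 0.119). For 9 of the 19 genes, Ugp2, Gusb, Hexa, Layn, Tlr2, Bcan, Ptx3, Adamts4 and Adamts8, the WT call was lost under no alternative other than the hair covariate, and for the other 10 it was lost under at least 1 more. With that covariate the log2 fold changes of the 9 were 0.59 for Ugp2, 0.74 for Gusb, 0.94 for Hexa, 1.45 for Layn, 1.64 for Tlr2, 2.86 for Bcan, 2.26 for Ptx3, 2.13 for Adamts4 and 1.61 for Adamts8. With any 1 WT mouse left out the count of 19 fell to between 9 and 12. It was 9 without WT PBS mouse 159 or 160 and 11 without WT PBS mouse 161 or WT BLM mouse 147. Without WT BLM mouse 145 or 146 it was 12. Calls over all genes fell in the same fits, to between 2615 and 4027, against 6222 with all mice.

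**Figure D4:**
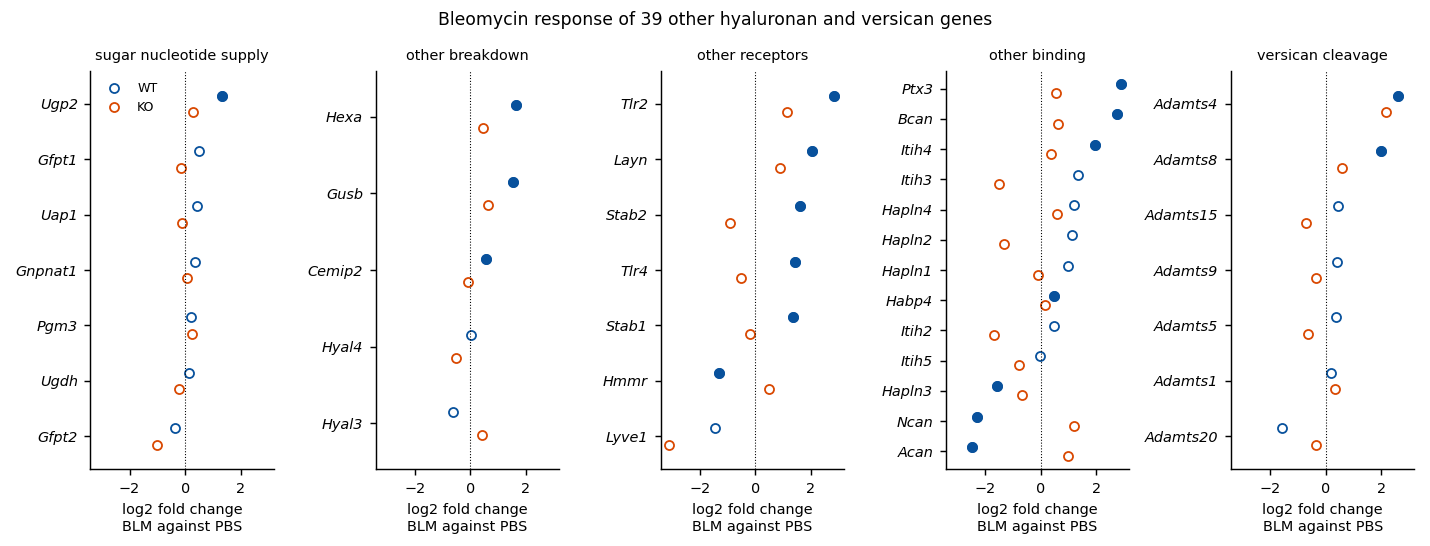
Log2 fold change of bleomycin against PBS (horizontal axis) in WT and KO for 39 of the 40 other hyaluronan and versican genes that passed the filter, in panels by role. Filled points were called at an adjusted p under 0.05, which holds for 19 genes in WT and 0 in KO, with Ptx3 (2.89) and Tlr2 (2.84) the furthest to the right in WT.

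The genes whose log2 CPM ran most like each member over the 12 mice are given as a description, since the mice share treatment and hair content and 13231 genes were searched. For Has3 they were Cenpi, Clspn and Rad51ap1, genes of centromeres and DNA replication or repair, with Pearson's r of 0.95 each. For Tnfaip6 they were Rftn1, Gjc1 and the matrix metalloproteinase gene Mmp14 (r of 0.98, 0.97 and 0.97), and for Vcan they were Gas2, Hhat and the chondroitin synthase gene Chsy1 (0.96, 0.94 and 0.92). Hyal1 ran with Anks1 (0.98) and Hyal2 with Snu13 (0.98). Cd44 ran with Fam20a (0.94) and Furin (0.93), Cemip with Lzic (0.94), Has2 with Wdr41 (0.92) and Has1 with Pdlim4 (0.91).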

How the data were processed

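Per the labels and the study's methods, RNA from whole skin was made into stranded mRNA libraries and sequenced. The authors deposited 1 table of raw read counts per gene for 55453 genes and 12 mice, on GRCm38.p6; the aligner and counter were not given in the sources used here, and MultiQC 1.7 is the tool named in the submitters' processing notes. No comparison columns were used. Counts were analysed in R 4.3.3 with edgeR 4.0.16 and limma 3.58.1. Genes were kept by filterByExpr (minimum count 10, minimum total 15), which left 18311; 34689 had any count. Libraries were scaled by TMM, and a quasi-likelihood model with 4 group means was fitted to all 12 mice (biological coefficient of variation 34.9%), the p-values being adjusted by Benjamini-Hochberg over all genes tested, with a threshold of 0.05. The interaction was the KO response minus the WT response. CPM values use the scaled library sizes. CPM per kilobase divides by the summed exon length of GENCODE M21. Replicate libraries all differed by more than sampling noise, so none was counted as 1 sample. The script was tested on simulated data. DESeq2 1.42.0, RLE and upper-quartile scaling, other filters, a fit of the 2 groups compared, the hair list as a covariate and leaving out each mouse were the alternatives; leaving out mice 136 and 141 together was chosen after seeing the data. The named genes are the 9 members, the further pathway genes called in WT or needed beside them, and the 3 genes most alike in log2 CPM (mean of at least 1). The members and lists were chosen with earlier results of these data known, so the counts are descriptions and no set test was run. The mice were separate animals, with no batch in the labels. Values of 1 further pathway gene are not reported here.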

Additional observations from a re-analysis of the deposited data

How the results depend on the processing

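Each member was recomputed under 20 alternatives in the pairwise comparisons and 19 in the interaction, where no fit of 2 groups exists; the other pathway genes were recomputed under the 20 in WT BLM against PBS and not elsewhere. In WT BLM against PBS, 3 members were called, against 5 in a fit of those groups alone (7803 of all genes), 6 without mice 136 and 141 (9159), and 0 with the hair list as a covariate (24); leaving out 1 mouse gave 0 to 6, with 0 without WT BLM mouse 147 or WT PBS mouse 159 or 160, 1 without WT BLM mouse 146 and 6 without KO PBS mouse 136. In KO BLM against PBS the count of 0 became 2 with the hair covariate (Has1 and Hyal1), 1 by DESeq2 (Vcan) and 2 without mice 136 and 141 (range 0 to 3 with 1 mouse left out). In KO PBS against WT PBS it became 4 without both mice (range 0 to 3), in KO BLM against WT BLM 1 (range 0 to 1), and in the interaction 2 without both mice and 1 by DESeq2 (range 0 to 3). In each of these 4, the upper end was without mouse 136. The count of other pathway genes, 19 in WT, was 0 with the hair covariate and 9 to 24 with 1 mouse left out. Over all genes, calls in WT numbered 6222, against 2615 to 8565 with 1 mouse left out; in KO BLM against PBS 56 became 1603 with the covariate, 1202 by DESeq2, 2632 without mouse 136 and 4164 without both mice. In KO PBS against WT PBS 12 became 6870 without mouse 136 and 7648 without both mice, in KO BLM against WT BLM 17 became 1292 and 815, and in the interaction 0 became 7470 and 7218, and 3253 by DESeq2.

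Signs turned mostly with the hair covariate, which is nearly the treatment in WT. There the log2 values became -0.41 for Has1 and -0.59 for Has2 in WT BLM against PBS; 0.34 for Has2 in KO BLM against PBS; -1.09 for Has2, 0.20 for Hyal1 and 0.22 for Cemip in KO PBS against WT PBS; 0.62 for Has1, -0.53 for Has3, -0.37 for Hyal1 and 0.022 for Tnfaip6 in KO BLM against WT BLM; and 0.93 for Has2, -0.57 for Hyal1, -1.69 for Cemip and -0.12 for Cd44 in the interaction. None of these values with a turned sign passed. Without mice 136 and 141 Hyal1 was -0.12 in KO BLM against WT BLM. With 1 mouse left out, signs turned for Has2 (-1.10 to 0.54) and Has3 (-0.18 to 1.59) in KO BLM against PBS, Has2 (-0.79 to 1.0) in KO PBS against WT PBS, Hyal1 (-0.09 to 0.12, the low end being -0.091) in KO BLM against WT BLM, and Has1 (-0.20 to 0.63) and Cemip (-0.35 to 1.13) in the interaction. The cause was not tested. No paired analysis was possible because every mouse has its own number. Has1, at 2 to 70 reads, is the member that depth limits most.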
